A study of Mus musculus with 4 samples.

Results

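The mouse gene annotation deposited with the study marked 4944 of its 110379 transcripts as targets of nonsense-mediated decay (NMD). Described here are the 4927 of them (4.46% of all transcripts) that belong to protein-coding genes, after 14 transcripts of Srsf splicing factor genes and 3 transcripts of genes of another class were left out. The choice used the transcript class (nonsense_mediated_decay), the gene class and the gene symbol, and no measured value. These 4927 transcripts lay in 3189 of 22147 protein-coding genes, which is 14.4% of them, and 30 of them lay outside chromosomes 1 to 19, X, Y and MT. For each one, the bases from the end of its coding sequence (CDS) to its last exon junction were counted, and its exons were set against those of the longest protein_coding transcript of the same gene, called the comparison transcript below.

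NMD is a surveillance pathway of the cytoplasm that degrades messenger RNAs whose translation stops too early. Splicing leaves an exon junction complex near each junction of an mRNA, and the translating ribosome clears these complexes. A complex that remains downstream of a stop codon recruits the UPF and SMG proteins, which trigger decay. Cells also use the pathway to set the level of many genes, above all of RNA-binding proteins that steer the splicing of their own transcripts towards a form with an early stop, through what is often called a poison exon.

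The study set out to learn what rhythmic force does to macrophages and whether PIEZO1, a stretch-gated ion channel, takes part. Polyadenylated RNA was sequenced from bone marrow-derived macrophages of C57/BL6 mice, grown with M-CSF at 50 ng/mL, in 4 groups of 1 library each. All mice carried floxed Piezo1 alleles, per the labels. Cells of Piezo fl/fl, LysM Cre+ mice (KO in the labels), in which a promoter of the myeloid lineage drives Cre, and cells of Piezo1 fl/fl littermates without Cre (WT) were each held for 6 h under cyclic hydrostatic pressure of about 15 mmHg (intake valve open for 0.6 s, exhaust valve for 0.4 s) or under static pressure. The sources used here do not give the floxed exons of Piezo1. The results concern annotated structures that the 4 libraries share, so they hold for no single group. Library values were not analysed here, the depth is unknown, and no expression difference or p-value is given.

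The stretch between a changed junction and the stop codon that follows it varied between NMD transcripts. The first set is from regulators and core proteins of splicing and from Sat1. In each transcript 1 included or 1 skipped exon was the only change of introns within its own span. Introns of the comparison transcript beyond that span were not counted. Of 36 listed transcripts of this kind with a sequence, these 9 were picked after the sequences had been seen, to show related pairs and both kinds of change. Their transcript support level, a grade of RNA evidence from 1 (best) to 5 (lowest), was mostly 5. Only Clk1-004, at level 1, and Ptbp2-006, at level 3, stood higher. Over all 36 the stop lay at a median of 24.5 bases from the junction, from -33 (before the junction) to 313, and over 100 in 5. The longer ones not shown include Luc7l-001 with 176 bases and Srrm1-009 with 313. Each runs 5′ to 3′ on the sense strand from the first base after the changed junction to the stop codon, which is in capitals. Letters come from the GENCODE M21 transcripts of the same build, GRCm38, where the exons were the same as in the deposited annotation.
Ptbp1-008, exon skipped: gcgtctacggtgatgtgcagcgggTGA
Ptbp2-006, exon skipped: gtgtttatggagatgtgcagcgcgTGA
Hnrnph3-003, exon skipped: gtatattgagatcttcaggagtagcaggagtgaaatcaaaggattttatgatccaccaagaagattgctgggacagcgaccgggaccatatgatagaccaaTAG
Clk1-004, exon skipped: atgaaattgttgatacttTAG
Clk2-005, exon skipped: atgaaattgTAA
Hnrnpl-006, exon included: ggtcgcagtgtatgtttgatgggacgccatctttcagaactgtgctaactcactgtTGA
Snrpb-002, exon included: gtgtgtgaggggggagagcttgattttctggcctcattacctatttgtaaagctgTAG
Sf3b1-002, exon included: gcttctattctgctgctTGA
Sat1-002, exon included: gttacagtctcTAG

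Ptbp1 and Ptbp2 encode polypyrimidine tract-binding proteins, repressors of exon inclusion, and they lost exons of the same size. Ptbp1-008 skipped a 34-base exon at chr10:79862014-79862047 on the plus strand, and Ptbp2-006 skipped a 34-base exon at chr3:119724612-119724645 on the minus strand. Ptbp1-008 held 12 exons. Ptbp2-006 was a shorter model of 5 exons on chr3:119720345-119726140, and it was compared over that span alone. In both transcripts the stop codon followed after 24 coding bases, with 364 bases and 3 junctions between the CDS end and the last junction. Their 27 letters from junction to stop agreed at 22 positions. Clk1 and Clk2, kinases that phosphorylate SR proteins, formed a second such pair. Clk1-004 skipped 91 bases at chr1:58420121-58420211 on the minus strand and Clk2-005 skipped 85 bases at chr3:89169618-89169702 on the plus strand. Their stop codons came 18 and 9 coding bases after the junction, and 10 of the first 12 letters were alike. Both pairs were picked after the sequences had been seen, and paralogous genes share sequence outside these stretches too.

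Hnrnph3-003, of an hnRNP H family protein, skipped 139 bases at chr10:63018760-63018898 on the minus strand and read 101 coding bases before its stop, with a distance of 612 bases. The included exons printed here held their own stops. Hnrnpl, an hnRNP protein that binds CA-rich RNA, had a 70-base exon at chr7:28817335-28817404 on the plus strand, and the stop came 56 bases into it. Snrpb, the Sm core protein SmB, had a 124-base exon at chr2:130176629-130176752 on the minus strand with its stop after 55 bases. Sf3b1, a subunit of the U2 snRNP, had a 56-base exon at chr1:55014869-55014924 on the minus strand with its stop after 17 bases. Sat1, an enzyme of polyamine breakdown, had a 110-base exon at chrX:155215121-155215230 on the minus strand with its stop after 11 bases. The distances from the CDS end to the last junction were 845 bases for Hnrnpl-006, 599 for Snrpb-002, 119 for Sf3b1-002 and 242 for Sat1-002.

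The second set shows the join itself in genes that the study's question touches. Each line gives 15 bases before the junction in lower case and the 15 bases after it in capitals, first for the NMD transcript and then for its comparison transcript.
Nfkb1-004: gctgccaactggcagGGGACATGAAGCAGC
Nfkb1-001: gctgccaactggcagGTATTTGACATACTA
Slc2a1-004: atccttattgcccagTGCTGAAGAAGCTTC
Slc2a1-001: atccttattgcccagGTGTTTGGCTTAGAC
Tmem63a-005: gtcagttgctttctgTGAGGCCAGGTTCCA
Tmem63a-001: gtcagttgctttctgTTTCTAATCCTGGTG
Trpc1-003: tggcgtgcgacaaggTCCGCAGATGCACTT
Trpc1-004: tggcgtgcgacaaggGTGACTATTATATGG

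Each of these 4 transcripts skipped 1 exon whose length is no multiple of 3. The genes were picked after the sequences had been seen. Nfkb1-004 and Trpc1-003 carried support level 1, Tmem63a-005 level 3 and Slc2a1-004 level 5. Nfkb1-004, of the NF-κB subunit p105/p50, skipped 67 bases at chr3:135590780-135590846 on the minus strand and read 6 coding bases before its TGA. Slc2a1-004, of the glucose transporter GLUT1, skipped 163 bases at chr4:119133097-119133259 on the plus strand and read 3. Tmem63a-005, of a mechanically activated channel, skipped 80 bases at chr1:180948813-180948892 on the plus strand and read 0, since the junction was followed directly by TGA. Trpc1-003, of a cation channel, skipped 155 bases at chr9:95743197-95743351 on the minus strand and read 32, past the end of the printed window. The CDS ends of Nfkb1-004, Slc2a1-004, Tmem63a-005 and Trpc1-003 lay 345, 596, 102 and 1795 bases before the last junction. Nfkb1-009, another NMD transcript of Nfkb1, included 17 bases and read 135 before its stop, beyond the included exon.

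The distance from the CDS end to the last exon junction separated the classes, as their definition requires, so these values describe the annotation and are no finding. The distance is counted from the last coding base and includes the 3 bases of the stop codon. It is below 0 where coding sequence reaches into the last exon, and 0 where coding sequence ends on the last base before that exon. Among the 4927 NMD transcripts the lowest distance was -239 bases, the median 336 and the highest 9215, with quartiles of 158 and 765. At support level 1 or 2, the better grades of RNA evidence, 2074 NMD transcripts were left and their median was 528. Among 38590 protein_coding transcripts with 2 or more exons and an annotated stop codon, the median was -138. The CDS ended more than 50 bases before the last junction in 4849 NMD transcripts (98.4%), against 335 protein_coding transcripts (0.868%). Of those 335, 107 belonged to genes that also had an NMD transcript.

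**Figure D1:**
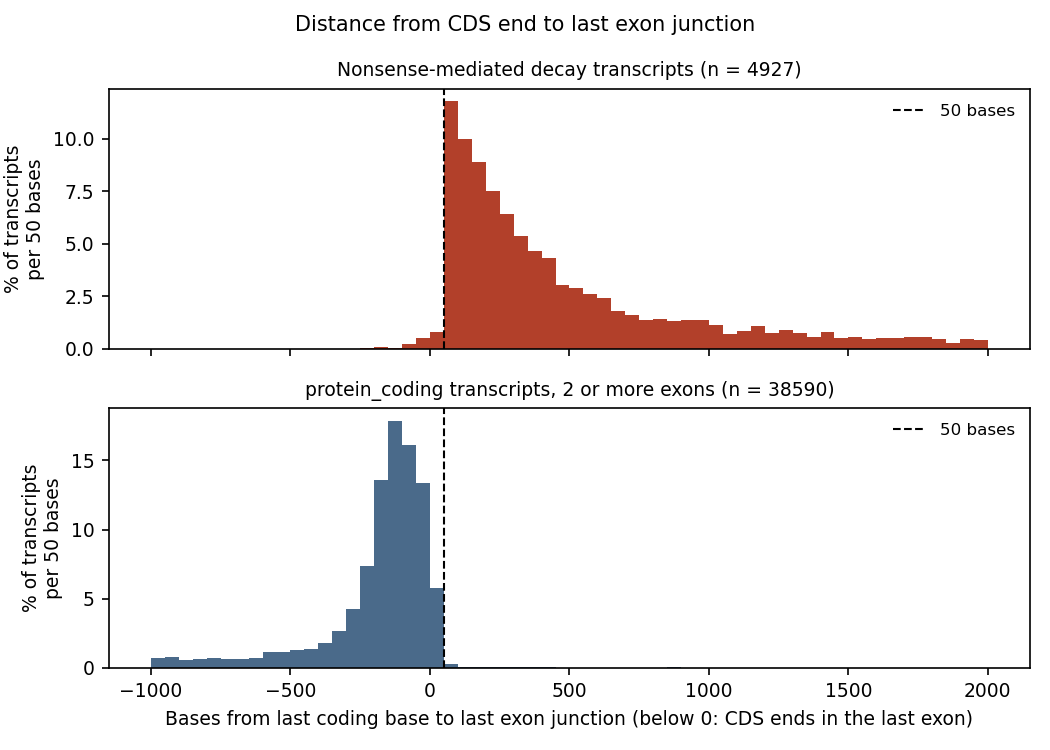
Distance in bases from the last coding base to the last exon junction, as the percent of transcripts in each 50-base bin, for NMD transcripts (upper panel) and protein_coding transcripts of 2 or more exons (lower panel). The dashed line marks 50 bases, and values beyond the axis are not drawn. The NMD transcripts rise steeply just right of the line and tail off to the right (median 336), and the protein_coding transcripts lie almost wholly left of it (median -138).

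The edge between the classes was sharp to within a few bases. Distances of 48 to 50 bases occurred in 9 NMD transcripts and 51 protein_coding transcripts, and distances of 51 to 53 bases in 6 NMD transcripts and 38 protein_coding transcripts. At 54 to 56 bases the count rose to 41 among NMD transcripts and fell to 8 among protein_coding transcripts. The groups held 4927 and 38590 transcripts, so these counts compare bins within a class, not the classes with each other. A distance of 54 leaves 51 bases between the last base of the stop codon and the last junction. Just inside 50 bases stood Cmpk1-003, Mtfr1l-004, Rhbdf1-002, Syne4-013 and Syne4-019 with 49 each, and just outside it Slc22a29-002 and Slc22a29-003 with 51 each.

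In 78 NMD transcripts (1.58%) from 68 genes the distance was 50 bases or less. The distance was at or below 0 in 40 of them and between 1 and 50 in 38, and 28 of the 78 had no annotated start codon. The lowest was Chst8-002, of a carbohydrate sulfotransferase, which had 2 exons and whose coding sequence continued for 239 bases into the last one. Clk4-002, of another kinase of the Clk family, stood at -8, and Srrm1-009, of an SR-related splicing coactivator, at 0. Ifngr1, the ligand-binding chain of the interferon gamma receptor, had Ifngr1-003 at 6 and Ifngr1-006 at 11. These genes, other than those the naming rule takes, were picked after their values were seen.

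At the far end, 1801 NMD transcripts (36.6%) had a distance over 500 bases and 912 (18.5%) over 1000. The longest was Rev3l-002 with 9215 bases and 31 junctions after its CDS, which held 141 coding bases in a transcript of 33 exons. Rev3l encodes the catalytic subunit of the translesion DNA polymerase zeta. Ankrd11-002, of a chromatin regulator, followed with 7552 bases, and Lrp5-002, of a Wnt co-receptor, with 7476. Polq, the DNA polymerase theta gene, had the next pair, Polq-001 with 7086 bases and Polq-004 with 6249. Of these 5 transcripts, 4 stopped in an exon absent from the comparison transcript, and Lrp5-002 stopped in comparison CDS.

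The number of junctions after the last coding base varied widely. The median NMD transcript had 3, and the highest number was 38. Exactly 1 junction followed the CDS in 1125 transcripts (22.8%), 2 followed in 1055 (21.4%) and 10 or more in 587 (11.9%). Of protein_coding transcripts, 93.2% had none and 6.56% had 1.

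The lengths of NMD transcripts are set here beside those of 2 groups, of which the comparison transcripts are the longest of their genes by choice. The median NMD transcript had 7 exons, 1294 exon bases and 306 coding bases, against 11 exons, 3159 exon bases and 1521 coding bases for their comparison transcripts. For all protein_coding transcripts of 2 or more exons the medians were 8 exons, 2366 exon bases and 1236 coding bases. A start codon was annotated in 3546 (72%) of the NMD transcripts and in 45954 (91.9%) of the protein_coding transcripts. The same start codon as in the comparison transcript was used by 3138 (64.4%). Where that start was shared and the comparison CDS was complete at its end (3129 transcripts), the NMD transcript kept a median of 28.5% of the comparison's coding bases, with quartiles of 14.8% and 54.0%. Less than 50% was kept by 2238 (71.5%), and exactly 100% by 153 (4.89%). Transcript support level 1, the best grade of RNA evidence, was held by 33.9% of NMD transcripts and 55.4% of protein_coding ones, and level 5, the lowest, by 37% and 21.8%.

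An exon counted as absent from the comparison transcript when it shared no base with any of its exons, and as skipped when a comparison exon within the span of the NMD transcript shared no base with the NMD exons. A comparison was possible for 4872 NMD transcripts, and 55 lay in genes with no usable protein_coding transcript. An absent exon was present in 1969 (40.4%) and a skipped one in 1995 (40.9%). The balance depended on the setting: against all protein_coding transcripts of the gene together it was 31.6% absent and 53.6% skipped, and at support level 1 or 2 it was 44.9% absent and 36.9% skipped. Absent exons alone occurred in 1426 (29.3%), skipped exons alone in 1452 (29.8%), both in 543 (11.1%) and neither in 1451 (29.8%). The median distances of the 4 classes were 323.5, 344.5, 390 and 318 bases.

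Most changes were small. Of the 1969 transcripts with absent exons 69.1% had exactly 1, and of the 1995 with skipped exons 71.7% had exactly 1. The absent exon was internal in 80.8% of the 1969, the first exon in 22.4% and the last exon in 23.9%, and a transcript could have more than 1 kind. In the 1451 transcripts with neither, 1239 (85.4%) had an intron with 1 end moved, 146 (10.1%) an intron cut out of a comparison exon and 91 (6.27%) a retained intron. In 33 of them all introns were those of the comparison transcript.

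The place of the stop codon is partly fixed by these classes, since only a transcript with an absent exon can stop in one. Over all 4872, the first base of the stop codon lay in comparison CDS in 2851 (58.5%). It lay in an absent exon in 1120 (23%), in bases that are intron in the comparison but belong to an overlapping exon in 582 (11.9%), and at the comparison's own stop codon in 249 (5.11%). Among transcripts with absent exons alone, 63.3% stopped in an absent exon. Among those with skipped exons alone, 95.5% stopped in comparison CDS. Among those with neither, 61.1% stopped in comparison CDS and 29.8% in comparison intron.

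**Figure D2:**
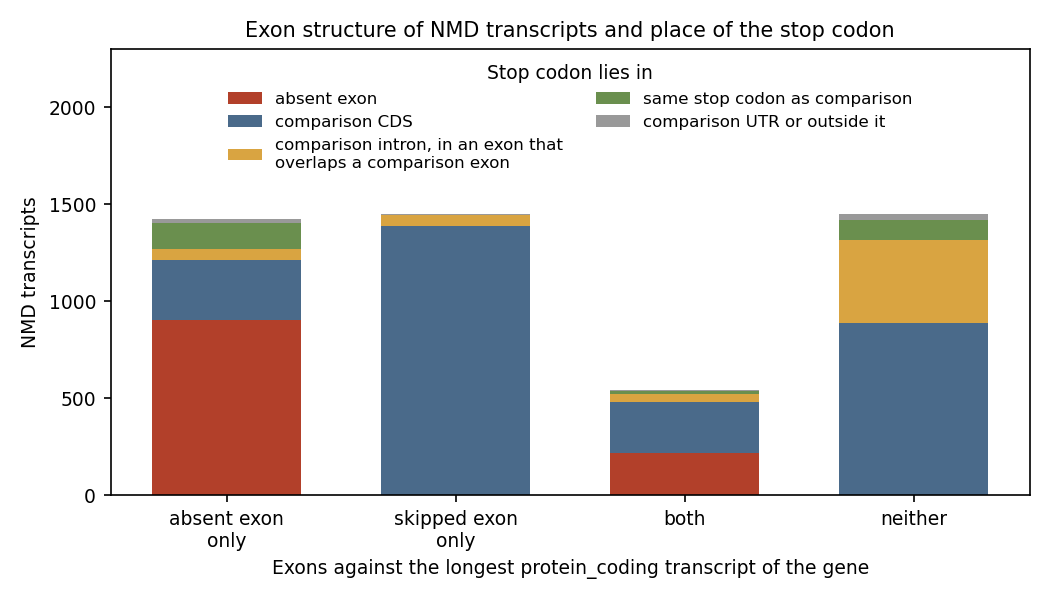
Number of NMD transcripts whose exons differ from the gene's longest protein_coding transcript by absent exons only (1426), skipped exons only (1452), both (543) or neither (1451), with colours for where the stop codon lies. The red part, stops in an absent exon, fills 63.3% of the first bar, and the blue part, stops in comparison CDS, fills 95.5% of the second.

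In 249 transcripts the stop codon was the comparison's own, and 248 of them had at least 1 junction after it, in the 3′ untranslated region. The exception was Hint3-002, with none. Their median distance was 227 bases, and 152 of them (61%) had exactly 1 junction after the stop. Of 74 transcripts whose only change of introns within their span was an intron inside a comparison exon, 56 (75.7%) were of this kind. Hnrnpd and Hnrnpdl, which encode the related AU-rich element binding proteins AUF1 and JKTBP, both had this layout through an included exon. Hnrnpd-012 included 107 bases at chr5:99962098-99962204 and Hnrnpdl-003 included 105 bases at chr5:100035635-100035739, both on the minus strand. This pair was picked after its values were seen. The first 15 bases of these exons were alike at all 15 positions, and their longest shared run was 20 bases. Their distances were 140 and 129 bases, with 2 junctions after the stop in each.

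Within their own span, just over 50% of the transcripts differed from the comparison by a single change of introns. Comparison introns beyond the ends of the NMD transcript were not counted, so a short transcript could still fall in these classes. Of 4872, 749 (15.4%) skipped exactly 1 exon, 673 (13.8%) included exactly 1, 573 (11.8%) used another acceptor and 414 (8.5%) another donor. Introns inside an exon (74) and retained introns (30) were rarer. In all, 2513 (51.6%) had a single difference of one of these kinds.

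Skipped exons were almost all frame-shifting. Their length was no multiple of 3 in 743 of 749 (99.2%), against 92630 of 156021 (59.4%) internal coding exons of the longest protein_coding transcripts over all genes. The class requires an early stop, so this share is given as a description and no test was made. The 6 that were multiples of 3 were in Aff3-004, Ercc8-002, Ercc8-004, Gtf2ird1-024 and Txnrd2-011, the last listed on both a chromosome and a patch sequence. The median skipped exon had 118 bases, against 123 for the internal coding exons. In the 729 of 749 transcripts whose stop codon began after the new junction, it came after a median of 36 coding bases. It came within 100 bases in 624 of these 729 (85.6%).

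Included exons were mixed in frame. Their length was no multiple of 3 in 484 of 673 (71.9%), with a median length of 110 bases and a range of 8 to 1854. The stop codon lay inside the included exon in 562 (83.5%). It did so in 185 of the 189 exons whose length was a multiple of 3 (97.9%) and in 377 of the 484 others (77.9%). In the 664 of 673 transcripts whose stop codon began after the junction, it came a median of 41 coding bases after it. It came within 100 bases in 554 of these 664 (83.4%). Tra2b-003, of a splicing activator related to the SR proteins, was an example with an exon of 276 bases at chr16:22258986-22259261, which is a multiple of 3. Its stop stood 78 bases into the exon, with 1018 bases and 8 junctions after it. Tra2b was named after its values were seen.

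**Figure D3:**
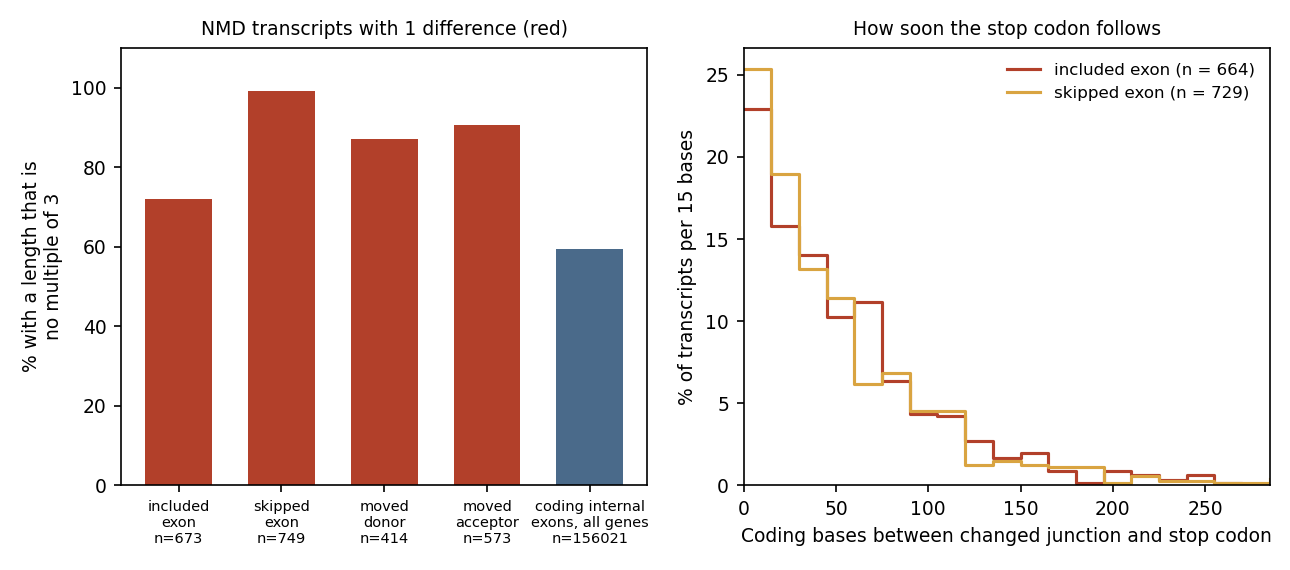
Left, percent of changed exons or exon ends whose length is no multiple of 3 in NMD transcripts with 1 included exon (71.9%), 1 skipped exon (99.2%), a moved donor (87%) or a moved acceptor (90.6%), beside internal coding exons of all genes (59.4%). Right, coding bases between the changed junction and the stop codon for included and skipped exons, as percent of transcripts per 15 bases: both curves are highest in the first bin and fall with similar shape, with medians of 41 and 36 bases.

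Moved exon ends made exons longer as well as shorter. The donor was moved by a median of 61 bases and the acceptor by 41. Moved donors lengthened the exon in 263 of 414 transcripts (63.5%), and moved acceptors in 252 of 573 (44%). Where the exon became shorter, the shift was no multiple of 3 in 96.7% of moved donors and 98.1% of moved acceptors. Where it became longer, the shift was no multiple of 3 in 81.4% and 81%, and the added bases held the stop codon in 170 of 263 (64.6%) and 150 of 252 (59.5%).

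Piezo1, the gene the study deletes, had both a moved acceptor and a skipped exon among its 2 NMD transcripts. Piezo1-001 had 40 exons on chr8:122481982-122499885, minus strand, and within that span differed from Piezo1-201 in a single acceptor. The gene covers chr8:122481698-122551329, and introns of Piezo1-201 beyond the span of Piezo1-001 were not counted. The changed intron of Piezo1-001 spanned chr8:122489617-122490062 in place of chr8:122489627-122490062, which made the next exon 10 bases shorter. Piezo1-001 held 3009 coding bases, no annotated start codon, and 3058 bases and 19 junctions after the CDS. Piezo1-002 had 25 exons, 3253 coding bases, 1 skipped exon beside other differences, and a distance of 252 bases with 1 junction. Both carried support level 5.

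Stop codons used by the NMD transcripts differed somewhat in letters from the comparison's. TGA ended 57.6% of 4659 NMD transcripts with M21 sequence and 52.1% of 2890 comparison transcripts. TAA ended 23.2% and 25%, and TAG 19.2% and 22.9%. The base after the stop codon was A in 31.1% and 27%, C in 23% and 24.8%, G in 26.7% and 31.8%, and T in 19.2% and 16.4%. Transcripts of 1 gene can share a stop codon, so these are not independent sites and no test was made.

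NMD transcripts were spread thinly over many genes. Of the 3189 genes, 2100 (65.9%) had 1, 709 (22.2%) had 2 and 27 had 6 or more. Genes with an NMD transcript had a median of 7 transcripts, against 2 for protein-coding genes without one. The share of genes with an NMD transcript was 0.451% among genes with 1 transcript, 18.4% among those with 4 and 65.3% among those with 16 or more. It also rose with the exon number of the longest protein_coding transcript, at 0.229% for 1 exon, 11% for 4 to 6 and 26.1% for 26 or more. Within genes of 4 to 6 transcripts the shares were 14.2%, 21.9%, 25%, 25.9% and 23% for 1 to 3, 4 to 6, 7 to 10, 11 to 15 and 16 or more exons. The number of annotated transcripts per gene also differs between the gene lists below, and its part in their shares was not tested.

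The 10 genes with the most NMD transcripts mixed RNA-binding proteins with unrelated genes. Tmem234, a transmembrane protein gene, led with 13 NMD transcripts among 21. Oprm1, the mu opioid receptor gene, had 11 among 31, and U2af1l4, a relative of the small U2AF subunit that reads the acceptor site, had 11 among 38. Tardbp, which encodes the RNA-binding protein TDP-43, had 10 among 30. Next came Rabggtb (a subunit of an enzyme that attaches lipids to Rab proteins), Rsrc2 (an arginine- and serine-rich protein) and Traf7 (a ubiquitin ligase) with 9 each, then Rbm39 (a U2AF-related splicing factor) and Zdhhc3 (a palmitoyltransferase) with 8, and Dmtf1 (a transcription factor) with 7.

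Their designs differed. In Tmem234, 10 of the 13 had an absent exon and the 13 used 4 different stop positions, at distances of 90 to 446 bases. In Oprm1 the 11 used 10 stop positions. In Rbm39 all 8 had an absent exon and none skipped one, with distances of 54 to 1445 bases. Tardbp was the reverse case: none of its 10 had an absent exon and 1 skipped an exon. In 8 of the 10 the stop lay in the comparison's 3′ untranslated region, and the distances ran from 87 to 698 bases with a median of 205.5. Traf7 also had no absent exon in any of its 9. Dmtf1 had the longest median distance of the 10 genes, 1532 bases.

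Among gene lists, splicing regulators other than Srsf genes had the highest share. The lists were chosen with earlier results of these data known and are described by their counts. Of 340 listed genes, 72 (21.2%) had an NMD transcript, against 14.4% of all protein-coding genes. With transcripts of support level 1 or 2 alone it was 9.41% against 7.57%, and among genes with 2 or more transcripts 27.5% against 23.3%. Among splicing regulators other than Srsf and hnRNP genes it was 22 of 41 (53.7%), with 45 transcripts and a median of 10 annotated transcripts per gene, and at support level 1 or 2 it was 11 (26.8%). Among hnRNP genes it was 11 of 30 (36.7%), with 28 transcripts and a median of 7. At support level 1 or 2 only Tardbp was left of these 30 (3.33%), below the 7.57% of all protein-coding genes, so the direction turned. Among genes of the spliceosome core it was 9 of 35 (25.7%), with 21 transcripts and a median of 4, and 4 (11.4%) at level 1 or 2. Of all protein-coding genes with 8 to 10 transcripts 44.1% had an NMD transcript, with 6 or 7 transcripts 32%, and with 4 transcripts 18.4%. Rbm39 had the most in the list of splicing regulators, and Son, a large splicing cofactor of nuclear speckles, the longest distance, 3023 bases. In the core list U2af1l4 had both the most and the longest, 2066 bases.

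The hnRNP genes, whose products bind nascent RNA and steer splicing, used several designs. Besides Tardbp with 10, Hnrnpd had 4 NMD transcripts, Ptbp1 3, and Hnrnpdl, Ptbp2 and Ptbp3 2 each. Hnrnph3, Hnrnpl, Hnrnpll, Hnrnpr and Syncrip had 1 each, and Syncrip-005 had the longest distance of the list, 1126 bases. Hnrnpd-006, Hnrnpd-010 and Hnrnpd-012 all kept the stop codon of Hnrnpd-001, at distances of 140, 104 and 140 bases. Ptbp2-008 stopped at the same distance as Ptbp2-006, 364 bases with 3 junctions. Ptbp3-003 skipped 3 exons and ended 161 bases before its last junction, and Ptbp3-007 had 923 bases.

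The pathway's own genes were near the share of all protein-coding genes. Of 19 NMD factors, 3 (15.8%) had 1 each, against 14.4% of all protein-coding genes. Smg6-003, of the endonuclease that cuts NMD targets, skipped a 62-base exon at chr11:74981852-74981913 and had a distance of 1382 bases. Smg5-008, of the adaptor that recruits decay enzymes, used another acceptor and had 437 bases. Gspt2-002, of a release factor that terminates translation, had 872 bases, 3 absent exons and its stop in the comparison's 3′ untranslated region. Of 9 genes of the exon junction complex, 1 (11.1%) had any: Magohb, a copy of the core subunit gene Magoh, had 3 at distances of 150, 209 and 403 bases. The core ATPase of NMD, Upf1, was on the list of NMD factors and had none. The NMD factor and exon junction complex lists had medians of 3 and 6 transcripts per gene. Among all genes with 3 transcripts 10.9% had an NMD transcript, and with 6 or 7 transcripts 32%. At support level 1 or 2, 2 of 19 (10.5%) and 0 of 9 were left, against 7.57% of all protein-coding genes.

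**Figure D4:**
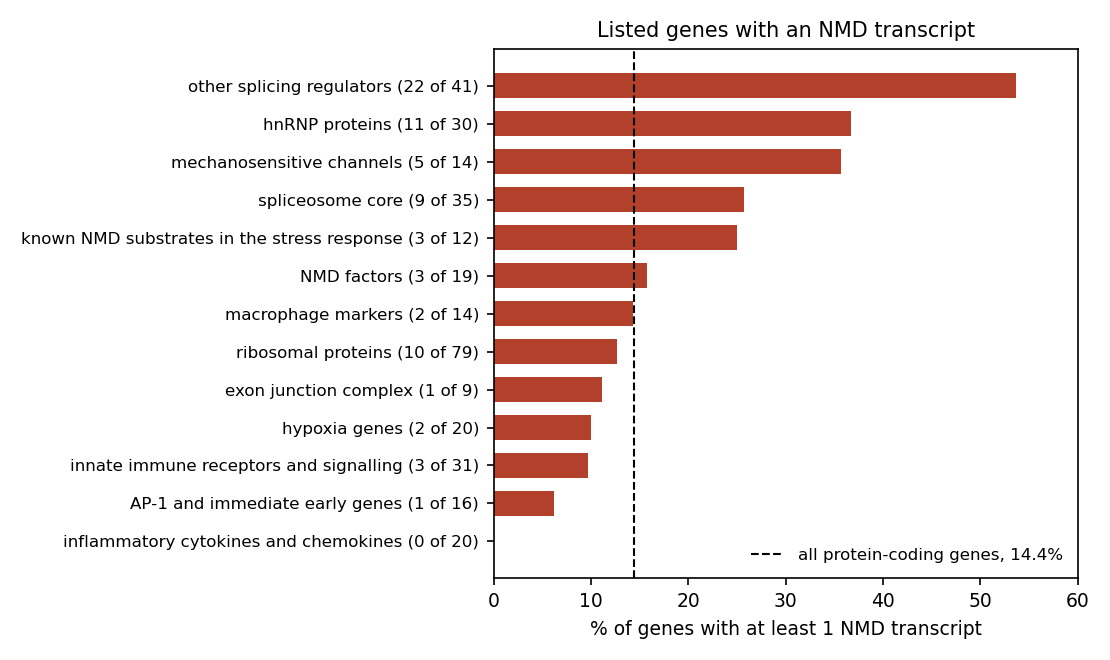
Percent of the genes in each list with at least 1 NMD transcript, with counts beside the names and a dashed line at 14.4%, the share of all protein-coding genes. Splicing regulators (22 of 41), hnRNP proteins (11 of 30) and mechanosensitive channels (5 of 14) lie furthest right of the line (at support level 1 or 2, 11, 1 and 3 of these genes were left), and inflammatory cytokines and chemokines (0 of 20) are at 0.

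Of 14 mechanosensitive channel genes, 5 (35.7%) had an NMD transcript, against 14.4% of all protein-coding genes. The median channel gene had 7 transcripts, and of all genes with 6 or 7 transcripts 32% had an NMD transcript. Piezo1 had 2. Trpc1 had Trpc1-002 and Trpc1-003 at 1648 and 1795 bases. Piezo2, the channel of touch neurons, had Piezo2-004, in which another donor shortened an exon, at 388 bases. Kcnk2, the potassium channel TREK-1, had 1 at 377 bases. Inflammatory cytokine and chemokine genes had none in 20. Their median was 2 transcripts per gene, and of all genes with 2 transcripts 3.95% had an NMD transcript.

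Counts were small in the other immune and stress lists, against 14.4% of all protein-coding genes. Of 31 genes of innate immune sensing and signalling, 3 (9.68%) had NMD transcripts. They were Ikbkb, the kinase that releases NF-κB, with 2, Nfkb1 with 2, and Irak3, an inhibitory kinase of Toll-like receptor signalling, with 1. Nfkb1-009 had the longest distance there, 2388 bases, after a 17-base included exon at chr3:135639140-135639156. Of 16 AP-1 and immediate early genes, 1 (6.25%) had any: Atf2-017 included 72 bases at chr2:73827787-73827858 that began with TAA, and its distance was 178 bases. Of 20 hypoxia genes, 2 (10%) did, Pgk1 (a glycolytic kinase) at 488 bases and Slc2a1 at 596. The innate immune, AP-1 and hypoxia lists had medians of 4, 1 and 4.5 transcripts per gene. Of all genes with 1, 4 and 5 transcripts, 0.451%, 18.4% and 23.7% had an NMD transcript. At support level 1 or 2 the 3 lists kept 3 of 31 (9.68%), 0 of 16 and 0 of 20 genes, against 7.57% of all protein-coding genes.

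Macrophage markers lay at 2 of 14 (14.3%), against 14.4% of all protein-coding genes. Itgam-009, of the integrin chain CD11b, used an acceptor that made the exon 29 bases longer and had a distance of 56 bases, 6 above the limit of 50. Fcgr1-002, of the high-affinity antibody receptor CD64, had 192 bases. Of 79 ribosomal protein genes 10 (12.7%) had 1 each, and Rpl10a had the longest distance, 542 bases. Of 12 genes known from other work as NMD substrates in the stress response, 3 (25%) carried a transcript of the class: Eif4a2, an RNA helicase of translation initiation, with 3 and a longest distance of 651 bases, Tbl2 with 3, and Sat1 with 1. Atf4, Atf3, Ddit3, Gadd45a and Gadd45b, of the stress response to misfolded protein and DNA damage, had none. The macrophage, ribosomal and stress lists had medians of 2, 5 and 3 transcripts per gene. Among all genes with 2, 5 and 3 transcripts, 3.95%, 23.7% and 10.9% had an NMD transcript. At support level 1 or 2, 0 of 14, 6 of 79 (7.59%) and 2 of 12 (16.7%) were left, against 7.57% of all protein-coding genes.

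Gene families, taken by the stem of the symbol, ranged from none to 31.7%, against 14.4% of all protein-coding genes. Of 30 symbol stems with at least 50 genes, Wdr was highest with 20 of 63 genes (31.7%), followed by Usp with 17 of 57 (29.8%) and Rnf with 21 of 82 (25.6%). No gene had an NMD transcript among 1104 Olfr, 68 Hist, 51 Krt and 56 Krtap genes, and 2 of 329 Vmn genes did (0.608%). Of all genes with 1 transcript the share was 0.451%, and of those whose longest protein_coding transcript had 1 exon it was 0.229%. Families were not matched for transcript number, exon number or support level, and the part of these in their shares was not tested. Olfr genes encode olfactory receptors, Hist genes histones, and Vmn genes vomeronasal receptors.

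Chromosomes differed in their share of genes with an NMD transcript. It was 26.1% on chromosome 1, 23.1% on chromosome 3 and 25.7% on chromosome 5. On every other autosome it lay between 9.37% (chromosome 14) and 18.2% (chromosome 9), and on X it was 7.91%. In GENCODE M21, a later annotation of the same build, chromosomes 1, 3 and 5 stood at 26%, 23.8% and 26.4%. Most other chromosomes were lower in the deposited annotation than in M21, such as chromosome 18 with 10.6% against 27.3% and chromosome 13 with 9.91% against 23.9%.

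**Figure D5:**
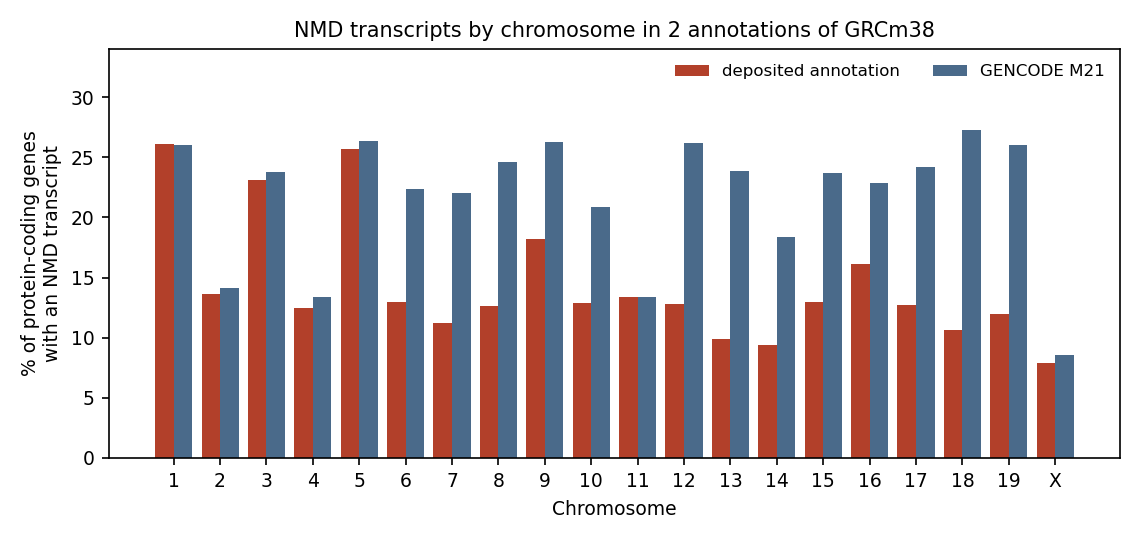
Percent of protein-coding genes with at least 1 NMD transcript on chromosomes 1 to 19 and X, in the deposited annotation (left bars) and in GENCODE M21 (right bars). Chromosomes 1, 3 and 5 stand at 23.1% to 26.1% in the deposited annotation and change little, chromosomes 2, 4, 11 and X stay below 15% in both, and the other autosomes are higher in M21.

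The class of a given transcript was stable between the annotations. Of the 4897 NMD transcripts on chromosomes 1 to 19, X, Y and MT, 4830 identifiers (98.6%) were found in M21, and 4716 (96.3%) were still of the NMD class there. Of the others, 61 were processed_transcript in M21, 26 protein_coding and 22 retained_intron. M21 held 7168 NMD transcripts by the same rule, and 5016 of their identifiers were already in the deposited annotation, where 161 were processed_transcript and 81 protein_coding.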

How the data were processed

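The authors deposited a gene annotation in GTF format for the whole series, whose start and end coordinates (1-based, GRCm38) were the only values used. It holds no library values. The submitters' processing notes name TopHat2, Bowtie2, Cufflinks, FastQC and CASAVA 1.8, with builds GRCm38 and mm10 and no roles. The sources used here do not give the annotation's release.

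Exon, CDS and stop codon lines were read with Python 3.11.15 and numpy 2.4.6, and figures drawn with matplotlib 3.10.9. The CDS end was the base before the stop codon's first base. The comparison transcript was the gene's protein_coding transcript with the most exon bases, ties going to coding length. Functions were tested on simulated data: all measures were right for 700 of 700 transcripts.

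Gene lists held 13 themes, counted on chromosomes 1 to 19, X, Y and MT. Named were the 10 genes with most NMD transcripts, each list's leaders, the extreme distances, Piezo1, all members of 3 lists and genes with printed sequences; others were picked after their values were seen. Members and lists were chosen with earlier results of these data known. No test fits an annotation with no replicates, so shares are descriptions. Alternatives numbered 11 planned and 2 added.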

Additional observations from a re-analysis of the deposited data

How the results depend on the processing

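No library is part of these results, so leaving out replicates does not apply. No paired analysis was possible because the results come from no test and no library. A share or median counted as moved when it left the 95% interval of its main value (exact binomial, or from order statistics), and a count when it changed by over 1.5 times. Of 64 recomputed values, 41 did not move. With support levels 1 and 2 alone, an alternative added after the data had been seen, 2074 NMD transcripts were left in place of 4927, in 7.57% of genes and 9.41% of listed genes; 99.2% had over 50 bases, the median distance was 528 bases in place of 336, absent exons occurred in 44.9% and skipped exons in 36.9%. With GENCODE M21, 20.7% of genes and 30.9% of listed genes had an NMD transcript, and 99.5% of transcripts had over 50 bases. Among genes with 2 or more transcripts the shares were 23.3% and, for listed genes, 27.5%. Over 55 bases were found in 97.7%. With annotated start and stop codons the median was 386 bases. Against all protein_coding transcripts together, 31.6% had an absent exon, 53.6% a skipped one and 27.6% neither. Counting internal exons only, these were 32.6%, 37.9% and 35.0%. Counting exons with other boundaries, they were 99.0%, 79.0% and 0.185%. The frame shares of included and skipped exons did not move under any alternative run. The libraries' depth is unknown, and 37% of the transcripts rest on support level 5.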

Other observations

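Chromosomes fell into 3 sets that were chosen after the values were seen. In the deposited annotation an NMD transcript was present in 25.1% of 3444 genes on chromosomes 1, 3 and 5, in 12.4% of 5703 genes on chromosomes 2, 4, 11 and X, and in 12.7% of 12604 genes on the other autosomes. In GENCODE M21 the same sets stood at 25.5%, 12.8% and 23.4%. Means in the deposited annotation were 4.96 transcripts per gene on chromosomes 1, 3 and 5, 4.16 on chromosomes 2, 4, 11 and X, and 3.23 on the others. Within genes of 4 to 6 transcripts the 3 sets stood at 27.7%, 16.3% and 25.8%. Transcripts of the class processed_transcript had means of 0.558 per gene on chromosomes 1, 3 and 5, 0.952 on chromosomes 2, 4, 11 and X, and 0.359 on the others. Retained introns had means of 1.25, 0.607 and 0.599 per gene in the same order.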
